A study of Homo sapiens with 2 samples.

Results

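The genes described here are the human genes of antigen presentation and of the interferon pathway, measured in stem-cell-derived beta (SC-beta) cells. They are 46 genes, listed by name, of 20046 genes that have a named probe on the array, and they were taken by symbol in the platform annotation rather than by their values. By role they divide into 17 genes of class I presentation, 12 of class II presentation and 17 of interferon signalling and response. Of the 46 genes, 44 had at least 1 named probe and 70 probes in all. *HLA-DQA1* and *STAT2* had no named probe, and their expression was not analysed here.

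The cells came from HUES8, an established human embryonic stem cell line, taken in suspension culture to stage 6 of a protocol for insulin-secreting beta cells, and were sorted as NKX6-1-positive and insulin-positive. The series holds 1 group of 2 biological replicates, with 1 single-colour Illumina bead array each, and no genotype change or interferon treatment is named in the labels. RNA was extracted from the sorted cells by MARIS, a method for cells that were fixed and stained for proteins inside them. Both replicates derive from 1 cell line, and the islet, undifferentiated and earlier-protocol arrays that the study set beside them were not analysed here.

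Class I molecules sit on nearly all nucleated cells and show peptides from the cell's own proteins to CD8+ T cells. They are made of a heavy chain and beta-2-microglobulin, and their peptides are cut by the proteasome, carried into the endoplasmic reticulum by the TAP transporter and trimmed there. Class II molecules show peptides from ingested proteins to CD4+ T cells, mainly on professional antigen-presenting cells. Interferons bind their receptors and, through JAK kinases and STAT and IRF transcription factors, switch on antiviral genes and much of the class I pathway. In the islets of people with autoimmune diabetes, raised class I and interferon-stimulated gene expression in beta cells is a known feature.

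Each probe has a normalized intensity on a linear scale, in arbitrary units. Background was taken from olfactory receptor genes, which were assumed to be mostly silent in these cells. A probe passed on an array where it exceeded the 95th percentile of their 457 probes, 18.0 on replicate 1 and 15.9 on replicate 2. A gene was counted as above background where 1 of its probes passed on both. By that rule 8 of the 384 olfactory receptor genes were themselves above background. A probe's own chemistry helps to set its brightness, so levels are compared between arrays for 1 probe and not between genes. With 2 arrays of 1 group no test between conditions can be made, and no p-value is given. Differences are of replicate 2 against replicate 1, at the brightest probe of a gene that was above background on both arrays.

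The sorted cells expressed most of the endocrine markers, but these were not limited to beta cell genes. Among markers with a named probe, 9 of 10 passed on both arrays, and *INS* had an intensity of 16501 on each. The 9 also held hormone genes of alpha and delta cells. *GCG* had 4606 and 6346 on replicates 1 and 2, and *SST* had 1923.5 and 3028. The marker that did not pass on both was *NKX6-1*, a gene of the sort, with 78.9 and -4.24. The count therefore describes endocrine genes, and beta cell identity was not tested. Leukocyte markers were above background in 3 of 9 cases, with *CD68*, *AIF1* and *LYZ* present, and *PTPRC*, the pan-leukocyte gene, had 1.60 and 6.43 at its brightest probe. *CD14*, *CD3E*, *CD79A*, *ITGAX* and *CSF1R* were not above background on either array. The summed intensity of the leukocyte markers was 1289 on replicate 1 and 748 on replicate 2, of which *CD68* alone gave 962 and 480.4. Endothelial markers were above background in 1 of 7 cases (*CLDN5*), with sums of 125 and 36.9. Mesenchymal markers were above background on both arrays in 2 of 6 cases and on replicate 2 in 5, with sums of 86.4 and 178, of which *COL3A1* gave 12.3 and 76.6. Pluripotent markers were above background on both arrays in 1 of 4 cases, *ZFP42* with 47.1 and 42.9. *POU5F1* passed on replicate 1 only, with 18.4 and 10.7, and *NANOG* and *LIN28A* on neither array.

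Most of the class I pathway was detected. Of 17 class I genes 12 were above background on both arrays (70.6%), against 46.9% of all named genes. *HLA-B*, a classical heavy chain, *HLA-E*, *HLA-F* and *HLA-G*, the nonclassical heavy chains, and *B2M*, which encodes the shared light chain, were among them. The others were *TAP1* and *TAPBP* of peptide transport and loading, *PSMB8*, *PSMB10*, *PSME1* and *PSME2* of the proteasome, and *ERAP2*. *TAP2* and *PSMB9* were above background on replicate 2 only and *ERAP1* on replicate 1 only. *HLA-C* and *NLRC5* were not above background on either array.

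*HLA-B* had intensities of 62.1 and 104 on replicates 1 and 2 at its single probe. *HLA-E*, whose product presents leader peptides of other class I chains to natural killer cell receptors, had 266 and 213. *HLA-G*, best known from the placenta, had 111 and 159. *HLA-F* had 288 and 295 at 1 probe and 14.8 and 0.00689 at the other. *HLA-C*, a classical heavy chain like *HLA-B*, had 10.8 and 6.79 at 1 probe and -15.2 and -16.5 at the other, so neither array gave it a value above background. Heavy chain genes resemble one another and vary between people, and a probe of 1 fixed sequence need not read every allele or only 1 gene. Probe sequences were not used here, so these heavy chain values cannot be assigned to 1 gene with certainty.

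*B2M* was above background at both of its probes, with 1811 and 2025 at the brighter and 948 and 667 at the dimmer. The log2 difference was 0.16 at the brighter probe and -0.51 at the dimmer, and so the probes did not share a direction. *TAP1*, which encodes a chain of the peptide transporter, had 39.5 and 74.4, a log2 difference of 0.91. *TAP2*, which encodes the partner of TAP1, had 13.3 and 48.8, at least 2.71-fold higher in replicate 2 against the background level of replicate 1, while its other probe had -10.5 and 5.54. *TAPBP* encodes tapasin, which holds empty class I molecules at the transporter, and it went the other way with 296 and 51.3. That is 5.78-fold lower in replicate 2, the largest difference of the class I genes, at 1 of 3 probes. The other *TAPBP* probes were not above background on either array.

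The immunoproteasome subunits replace constitutive ones when cells meet interferon. *PSMB8* had 69.3 and 29.1 at its brightest probe, 2.38-fold lower in replicate 2, but 23.1 and 21.0 at a dimmer one, a log2 difference of -0.14. *PSMB9* reached background only on replicate 2, with 8.65 and 19.4 at its brighter probe and -2.19 and 2.10 at the other. *PSMB10* had 486 and 266, a log2 difference of -0.87. Of the proteasome activator subunits, *PSME1* had 951 and 1385 at its brighter probe but 8.24 and 10.8 at the other, under background on both arrays. *PSME2* had 788 and 712. Both arrays were thus far above background for *PSMB10*, *PSME2* and the brighter *PSME1* probe, and close to it for the brighter *PSMB9* probe.

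The aminopeptidases that trim peptides in the endoplasmic reticulum differed in detection. *ERAP2* had 5031 and 7533 at 1 probe, a mean of 6282 ± 1770 (SD, n = 2), and 5.43 and 7.67 at the other. *ERAP1* had 22.8 and 5.90 at its brighter probe and 12.7 and 6.12 at the dimmer. *NLRC5*, the transactivator of class I genes, had 4.35 and -4.98. Both *ERAP2* arrays were high at the bright probe, whereas neither array put *NLRC5* above background.

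**Figure D1:**
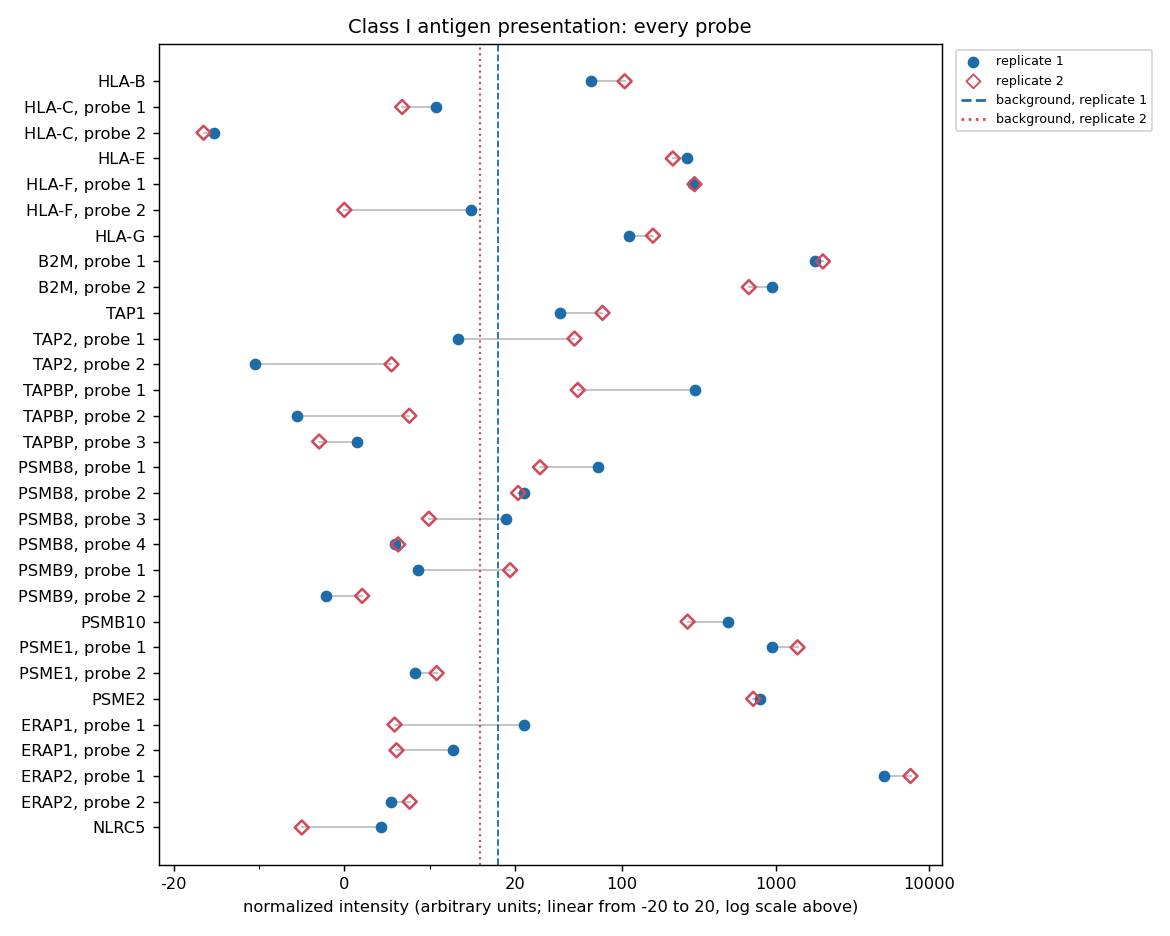
Normalized intensity (arbitrary units, linear from -20 to 20 and logarithmic above) of every class I probe, with filled circles for replicate 1, open diamonds for replicate 2 and lines for the background level of each array. The brighter *ERAP2* probe and both *B2M* probes lie far above background, and the other *ERAP2* probe and both *HLA-C* probes lie under it. The brightest *TAPBP* probe lies at 296 on replicate 1 and at 51.3 on replicate 2.

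Between the replicates the class I genes had no common direction. Of the 12 detected genes, 7 were higher and 5 lower in replicate 2, and the median log2 difference was 0.10 against 0.21 over all 9393 genes. *TAPBP* and *PSMB8* were 2-fold or more apart, which is 2 of 12 against 24.5% of all genes, and both were lower in replicate 2, against 10.9% of all genes. In 0 of 12 was replicate 2 higher by 2-fold or more, against 13.5% of all genes. Relative to the median gene, with 0.21 subtracted, the class I median was -0.12. Fewer cells expressing a gene and less RNA per cell cannot be told apart in these bulk samples.

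Promoter sequence is shown for 3 class I genes because the interferon-stimulated response element (ISRE), the site that IRF and STAT complexes bind, is where interferon is known to act on this pathway. The core searched was GAAA, then any 2 bases, then GAAA, on both strands, in RefSeq promoter windows of build GRCh38.p14 from 250 bases before to 50 after each start, and 40 of the 46 members had a window. *CIITA*, *HLA-DRA*, *HLA-E*, *IFNAR2*, *IRF7* and *NLRC5* had none. The 3 windows shown each hold 2 matches, so the sequences do not stand for all class I genes. *HLA-B*, *HLA-C*, *HLA-G* and *PSMB9* had no match in any window, and neither did the other window of *TAP1*. In the sequences below, the 200 bases before the start are given 5′ to 3′ on the strand of the gene, and capitals mark matches to the core, which can overlap.
B2M, chr15:44711317-44711516, plus strand: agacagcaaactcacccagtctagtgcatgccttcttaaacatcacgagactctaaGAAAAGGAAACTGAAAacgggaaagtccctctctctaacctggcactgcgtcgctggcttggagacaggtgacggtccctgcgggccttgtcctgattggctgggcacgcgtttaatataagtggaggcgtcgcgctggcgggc
TAP1, chr6:32853705-32853904, minus strand: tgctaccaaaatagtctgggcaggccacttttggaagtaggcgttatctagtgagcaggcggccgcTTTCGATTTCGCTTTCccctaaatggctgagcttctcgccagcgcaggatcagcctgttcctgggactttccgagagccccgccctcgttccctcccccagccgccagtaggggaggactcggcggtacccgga
TAPBP, chr6:33314079-33314278, minus strand: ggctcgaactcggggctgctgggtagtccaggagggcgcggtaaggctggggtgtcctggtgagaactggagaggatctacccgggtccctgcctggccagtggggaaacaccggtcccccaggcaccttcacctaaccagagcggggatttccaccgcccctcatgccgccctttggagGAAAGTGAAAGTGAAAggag

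The *B2M* matches begin 144 and 138 bases before the start and overlap, and those of *TAP1* begin 134 and 128 bases before it. In *TAPBP*, whose value was lower in replicate 2, both matches lie within the last 20 bases before the start. A match was present in 11 of 21 class I windows, which belong to 15 genes, against 3.57% of all 35116 windows. Of 10 class II genes with a window, 0 had a match, in 0 of 11 windows. A second motif, the GAS element (TTC, then any 3 bases, then GAA), was found in 2 of 21 class I windows, those of *PSMB8* and *TAP1*, against 7.66% of all windows. The CCAAT box, searched on both strands, was found in 8 of 21 class I windows and 9 of 11 class II windows, against 34.6% of all windows. An ISRE and a GAS match overlapped in 1 window of the members, and neither overlapped a CCAAT match. A match describes these letters and is not a shown binding site.

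Of 11 further genes for folding, the constitutive proteasome and the RFX factors that bind class I and class II promoters, 10 passed on both arrays (90.9%, against 46.9% of all named genes). *CALR*, the chaperone calreticulin, had 571 and 573, *CANX*, the chaperone calnexin, 170.2 and 198, and *TAPBPL*, a tapasin relative, 26.6 and 35.1. *PSMB5*, the constitutive counterpart of *PSMB8*, had 2155 and 2870. *PDIA3*, an oxidoreductase of the loading complex, was the exception with -1.01 and -10.4, which rests on a single probe. The median log2 difference of the 10 genes was 0.39, against 0.21 over all genes, and 2 of them were 2-fold or more higher in replicate 2, against 13.5% of all genes. These were *PSME3*, a nuclear proteasome activator, with 165 and 352 and with 147 and 313 at its other probe, and *RFX5* with 196 and 440.3, though 13.3 and 5.92 at its other probe.

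Class II genes were mostly not detected. Both arrays put 2 of 11 measured genes above background (18.2%), against the 46.9% of all named genes, and 7 were above it on neither. The genes above background were *CD74*, the invariant chain that guides class II molecules to endosomes and also a receptor for the cytokine MIF, and *HLA-DMA*, a chain of the peptide editor. *HLA-DRA* was above background on replicate 2 only and *HLA-DRB1* on replicate 1 only.

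*CD74* had 241 and 185 at its brightest probe and 124 and 113 at the second, so both arrays were high and both probes slightly lower in replicate 2, with log2 differences of -0.38 and -0.13. The last *CD74* probe had -14.0 and -13.6. *HLA-DMA* had 30.6 and 38.8, whereas *HLA-DMB*, the other chain of the editor, had 5.52 and 7.32. *HLA-DRA* had 11.1 and 31.4 at 1 probe and 15.4 and 10.5 at the other, and *HLA-DRB1* had 21.3 and 7.12. For these DR chains the arrays disagreed on which was above background.

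The remaining class II chains lay under background on both arrays. *HLA-DPA1* had -10.6 and 0.870, *HLA-DPB1* 3.93 and -1.67, and *HLA-DQB1* 6.14 and 14.3. *HLA-DOA* and *HLA-DOB*, which encode the chains of a brake on the editor, had 5.50 and 7.64, and 11.3 and 15.6. *CIITA*, the master regulator that switches class II genes on, had -7.89 and -4.62. None of these 6 genes passed on either array.

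**Figure D2:**
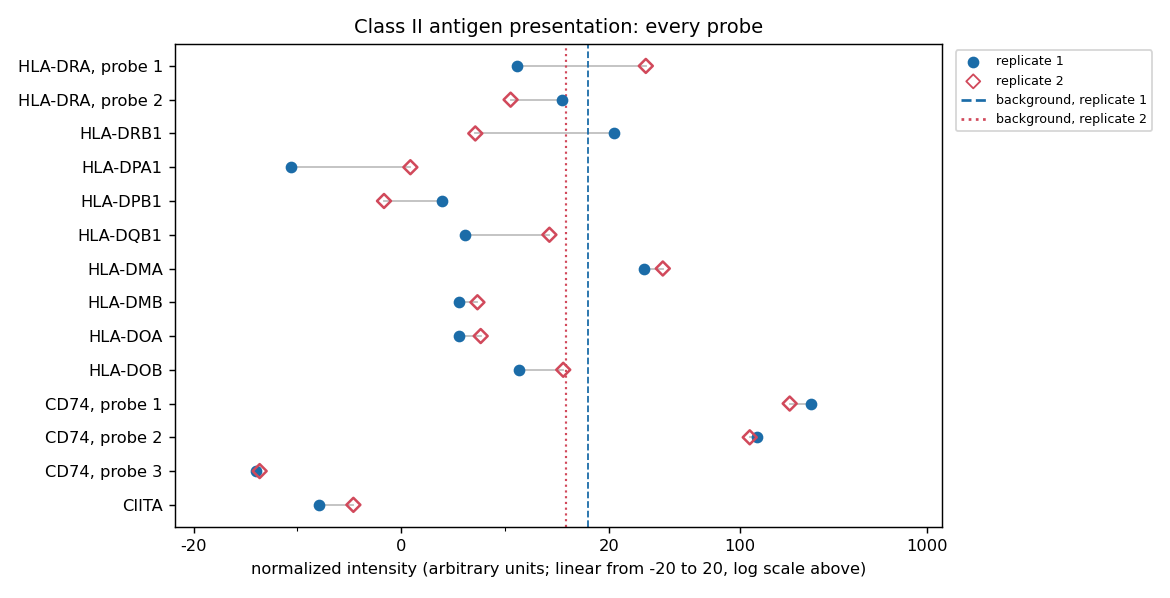
Normalized intensity (arbitrary units, linear from -20 to 20 and logarithmic above) of every class II probe, with filled circles for replicate 1, open diamonds for replicate 2 and lines for the background level of each array. Only the *CD74* probes at 241 and 124 and the *HLA-DMA* probe at 30.6 on replicate 1 are above background on both arrays.

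Other HLA loci of the annotation, looked at after the values of the members were seen, did not all follow this pattern. The probe annotated to *HLA-DRB3* had 124 and 110.0, and 1 of 3 *HLA-DRB4* probes was above background on both arrays with 26.2 and 24.0. *HLA-DRB5* had 4.28 and -1.78. The probes annotated to *HLA-H*, a class I pseudogene, had 341 and 282, and 474 and 482. Near-identical HLA genes may bind the same probe, and the signal is not assigned here to 1 locus.

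Class II peptides are made in endosomes, and 4 of 6 genes of that step passed on both arrays (66.7%, against 46.9% of all named genes). *CTSL* had 501 and 784 and *CTSB* 954 and 812, both lysosomal cathepsins, and *LGMN*, the endopeptidase legumain, had 676 and 460.5. *IFI30*, a lysosomal thiol reductase, had 96.0 and 43.7, 2.19-fold lower in replicate 2. At the brightest probe it was the 1 gene of these 4 that was lower by 2-fold or more, against 10.9% of all genes. A dimmer *LGMN* probe was also lower in replicate 2 by 2-fold or more, with 322 and 92.2. The dimmest *LGMN* probe had 19.99 and 18.66, so its probes did not share 1 size of difference. *CTSS*, the cathepsin that removes the invariant chain in antigen-presenting cells, had 0.0168 and -6.21, and *CD1D*, which presents lipids, was not above background on either array. Beside these values, the summed leukocyte markers were 1289 and 748, mostly *CD68*, and their part in the class II values was not tested.

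The interferon genes stood higher in replicate 2. Both arrays put 11 of 16 measured genes above background (68.8%), against 46.9% of all named genes. All 11 were higher in replicate 2 (9 of 11 relative to the median gene), where 60.9% of all genes were. The median log2 difference was 1.19 against 0.21 over all genes. It was 0.53 with an offset of 50 added before the log2 step and 0.65 by the median probe, where all genes had 0.14 under either setting. In 6 of 11 replicate 2 was higher by 2-fold or more, against 13.5% of all genes. They were 4 interferon-stimulated genes, *ISG15*, *IFIH1*, *OAS1* and *MX1*, and the 2 chains of the type I interferon receptor, *IFNAR1* and *IFNAR2*. With 1 array per replicate these differences have no replicate check.

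All 4 receptor genes were above background on both arrays, against 46.9% of all named genes. *IFNAR1* had 74.4 and 191, 2.56-fold higher in replicate 2. *IFNAR2* had 26.7 and 61.1 at its brightest probe, 2.29-fold higher, 11.5 and 50.9 at another, at least 2.83-fold higher, and -10.4 and -7.35 at the last. The chains of the interferon gamma receptor were closer between the arrays, *IFNGR1* with 227 and 299.6 and *IFNGR2* with 631 and 666. The type I receptor chains were thus 2-fold or more apart and the gamma receptor chains were not, and the difference between the receptors was not tested.

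Of the kinases that carry the receptor signal, *JAK1* had 15.0 and -11.0 and *JAK2* 4.89 and 16.7, and neither was above background on both arrays. *TYK2*, the other kinase of the type I receptor, had 748 and 761. Among the transcription factors, *IRF9*, the DNA-binding part of the complex that type I interferon forms, had 524 and 749.7, a log2 difference of 0.52. *IRF7*, which amplifies type I interferon production, had 60.8 and 85.7 at its brightest probe and 10.1 and 15.2, and -4.43 and -4.25, at the others. *IRF1*, a target and effector of interferon gamma, had 29.1 and 32.6. All 3 were higher in replicate 2 by less than 2-fold.

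The largest differences of the interferon genes were at targets. *ISG15*, a ubiquitin-like protein conjugated to others during antiviral responses, had 51.9 on replicate 1 and 231 on replicate 2, a mean of 142 ± 127 (SD, n = 2) and 4.45-fold higher in replicate 2. Ordered by signed difference, 99.4% of all genes lay below it. *IFIH1*, which encodes the double-stranded RNA sensor MDA5, had 28.0 and 104, 3.72-fold higher. *IFIT1*, whose product binds viral RNA, had 12.7 and 113, so it was above background on replicate 2 alone and at least 6.26-fold higher there. Its other probe had 8.20 and -7.01, under background on both arrays.

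*OAS1*, an RNA-activated synthetase that turns on RNase L, was 2.71-fold higher in replicate 2 at 1 probe, with 39.6 and 107.5, and 2.79-fold higher at another, with 30.1 and 84.0. Its other probes, with 14.5 and -0.738 and with -7.30 and -4.93, were not above background. *MX1*, a dynamin-like GTPase that blocks virus replication, had 224 and 587, 2.62-fold higher. *IFIT3*, a partner of *IFIT1*, was under background at all 3 probes, the brightest with 5.56 and 6.57. *CD274*, which encodes the checkpoint ligand PD-L1 that interferon gamma can induce, had -14.3 and -12.7. The 4 targets above background on both arrays, *ISG15*, *IFIH1*, *OAS1* and *MX1*, were each higher in replicate 2. *IFIT1* passed through replicate 2 alone and is not counted with them, and *IFIT3* and *CD274* passed on neither array.

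**Figure D3:**
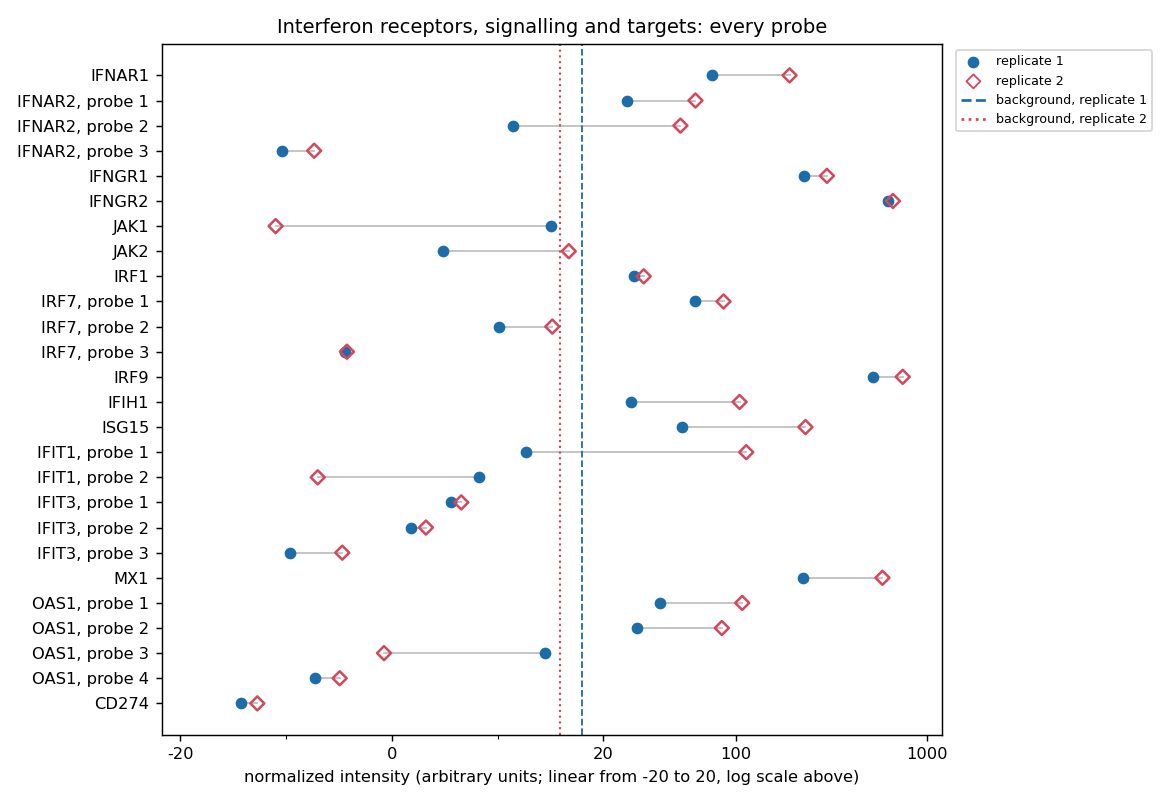
Normalized intensity (arbitrary units, linear from -20 to 20 and logarithmic above) of every interferon pathway probe, with filled circles for replicate 1, open diamonds for replicate 2 and lines for the background level of each array. The open diamonds lie to the right for *IFNAR1*, *IFIH1*, *ISG15*, *MX1* and the brighter probes of *IFIT1* and *OAS1*, and the *IFNGR2* values of 631 and 666 nearly coincide.

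Upstream sequence is shown for 3 targets that were higher in replicate 2, with the same core in capitals, in RefSeq build GRCh38.p14. Of these, *IFIT1* was above background on replicate 2 alone. *OAS1* and *MX1*, also higher in replicate 2, are not shown, so the sequences do not stand for all higher targets.
ISG15, chr1:1013297-1013496, plus strand: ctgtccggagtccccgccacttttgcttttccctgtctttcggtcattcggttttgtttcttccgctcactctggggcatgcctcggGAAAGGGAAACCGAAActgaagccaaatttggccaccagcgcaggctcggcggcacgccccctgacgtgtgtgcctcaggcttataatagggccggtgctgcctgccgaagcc
IFIH1, chr2:162318685-162318884, minus strand: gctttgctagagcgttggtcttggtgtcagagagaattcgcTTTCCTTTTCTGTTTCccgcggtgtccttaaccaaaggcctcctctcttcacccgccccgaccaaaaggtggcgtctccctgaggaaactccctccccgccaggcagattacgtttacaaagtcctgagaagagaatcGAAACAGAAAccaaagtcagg
IFIT1, chr10:89392423-89392622, plus strand: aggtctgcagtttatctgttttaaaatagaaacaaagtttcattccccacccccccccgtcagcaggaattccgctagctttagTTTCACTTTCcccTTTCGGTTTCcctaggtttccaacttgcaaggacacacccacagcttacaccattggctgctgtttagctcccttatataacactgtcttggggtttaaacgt

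In *ISG15* the matches begin 113 and 107 bases before the start and overlap. In *IFIT1* they begin 116 and 103 bases before it, on the other strand and apart, and *IFIH1* has 3, at 159, 153 and 21 bases. Of the 7 target genes 6 had a match in a window, in 8 of 10 windows, against 3.57% of all windows. The targets with a match included *IFIT3* and *CD274*, which were not above background, and *OAS1* was the gene without these letters. The *MX1* matches begin 11 bases after 1 start and 196 bases before another, and its remaining window had none. No receptor or kinase gene with a window had a match.

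**Figure D4:**
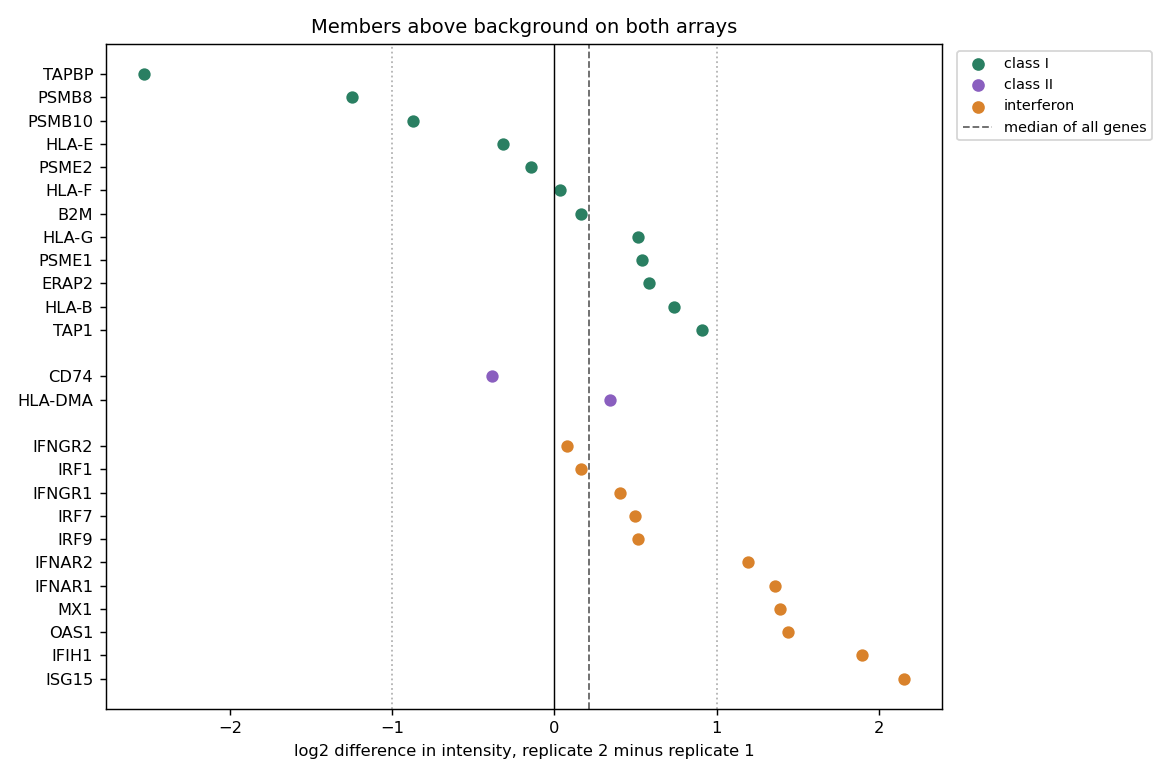
Log2 difference in intensity, replicate 2 minus replicate 1, for the 25 members above background on both arrays, with class I, class II and interferon genes in separate blocks, dotted lines at 2-fold and a dashed line at the median of all genes (0.21). Interferon genes reach 2.15 at *ISG15*, and class I genes run from -2.53 at *TAPBP* to 0.91 at *TAP1*.

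The same comparison over further genes was more mixed. Of 31 other interferon-stimulated genes 13 passed on both arrays (41.9%, against 46.9% of all named genes) and 15 on neither. The median log2 difference of the 13 was 0.60, against 0.21 over all genes. In 4 of 13 replicate 2 was higher by 2-fold or more and in 2 lower, against 13.5% and 10.9% of all genes. *IFITM3*, a membrane protein that blocks virus entry, had 40.3 and 218, 5.43-fold higher, its relatives *IFITM2* 69.7 and 191 and *IFITM1* 28.3 and 57.6, and *HERC5*, the ligase that attaches ISG15, 85.2 and 186. The IFITM genes are close paralogs that 1 probe may not separate. *ISG20*, a ribonuclease, had 548 and 106, 5.17-fold lower, and *IFI30* was the other lower gene.

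*OAS3*, a relative of *OAS1*, had 10.9 and 51.4, at least 2.85-fold higher in replicate 2, and *RSAD2*, the antiviral enzyme viperin, 3.42 and 29.0, at least 1.61-fold higher. *IFI6*, an interferon-induced mitochondrial protein, had 1567 and 1314 at 1 probe but 371 and 74.6 at the other. *IFI35* had 102 and 106, *IFIT5* 18.9 and 35.0, and *USP18*, which removes ISG15 and dampens the receptor, 58.0 and 58.1. Genes often used as interferon markers, among them *IFI27*, *IFI44L*, *MX2*, *GBP1*, *CXCL10* and *IDO1*, were not above background on either array. The list thus held genes that were higher in replicate 2, genes that were lower and genes that passed on neither array.

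**Figure D5:**
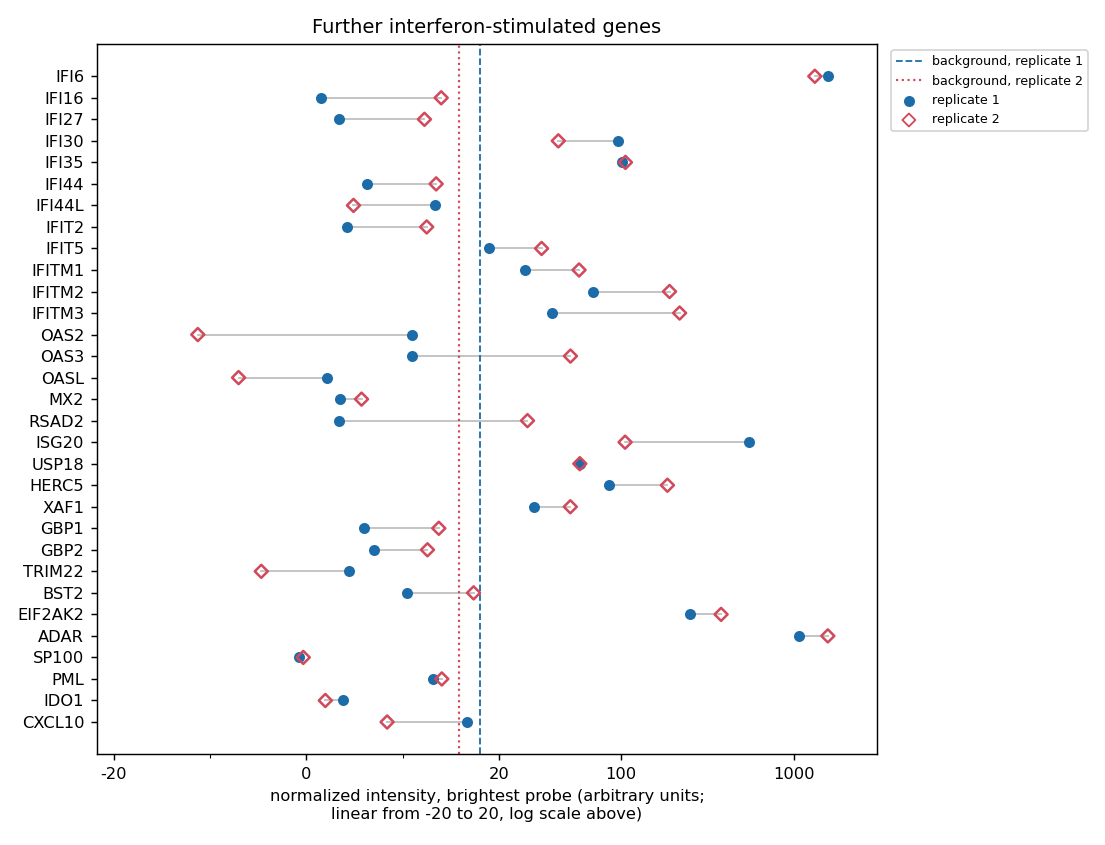
Normalized intensity (arbitrary units, linear from -20 to 20 and logarithmic above) of the brightest probe of 31 further interferon-stimulated genes, with filled circles for replicate 1, open diamonds for replicate 2 and lines for the background level of each array. *IFITM3* lies at 40.3 and 218 on replicates 1 and 2, *ISG20* at 548 and 106, and 15 genes lie under background on both arrays.

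The interferon ligand genes that were looked at were not detected. All 7, *IFNA1*, *IFNA2*, *IFNB1*, *IFNG*, *IFNL1*, *IFNL2* and *IFNL3*, were under background on both arrays, the highest value being 3.92 for *IFNA2* on replicate 2. Of 15 further genes of sensing and signalling 7 passed on both arrays (46.7%, against 46.9% of all named genes), with a median log2 difference of 0.07 against 0.21 over all genes. *RIGI*, the RNA sensor akin to *IFIH1*, had 21.6 and 24.4, and *IRF3*, the factor that starts interferon transcription, 128 and 135. *PTPN2*, a phosphatase that restrains JAK signalling, had 23.7 and 21.2 at the probe above background on both arrays. Its other probes had 9.81 and 36.9, above background on replicate 2 only, and 7.15 and 7.99, so the probes did not share a pattern. *STAT3* had 328 and 63.1, 5.20-fold lower in replicate 2, and 117 and 31.9 at another probe. *MAVS*, the adaptor of both sensors, passed on replicate 2 alone (5.37 and 46.8). *STING1*, *CGAS*, *TLR3*, *SOCS1* and *SOCS3* were not above background on either array.

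Of 7 other checkpoint genes 4 passed on both arrays (57.1%, against 46.9% of all named genes). *CD47*, the signal that restrains macrophages, had 84.8 and 168, and *PVR*, a ligand of T and natural killer cell receptors, 170.4 and 293. *CD276*, a relative of PD-L1, had 382 and 55.4 at 1 of 4 probes, 6.90-fold lower in replicate 2, and *NECTIN2* 328 and 106, 3.10-fold lower. These were 2 of 4 genes lower by 2-fold or more, against 10.9% of all genes, and the list had a median log2 difference of -0.42 against 0.21. *PDCD1LG2*, *LGALS9* and *FASLG* were not above background on either array.

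The interferon difference is read beside the spread of the whole array. Over the 9393 detected genes, 2298 differed by 2-fold or more, 1272 higher and 1026 lower in replicate 2, and with the median difference subtracted the split was 786 and 1328. With that subtraction the interferon median was 0.98, 5 of 11 genes were 2-fold or more higher, against 8.37% of all genes, and *IRF1* and *IFNGR2* turned to -0.05 and -0.13. With an offset of 50 added before the log2 step, which shrinks differences of dim probes, 2 of 11 were, against 4.84% of all genes, and these were *ISG15* and *MX1* at 1.46 and 1.22. In the lower 2 of 4 equal classes of brightness, which held *IFIH1*, *ISG15* and *OAS1*, 17.5% and 16.6% of all genes were 2-fold or more higher. The mesenchymal markers above background on both arrays, *COL1A1* and *COL1A2*, had log2 differences of 0.10 and 0.14, *COL3A1* had 12.3 and 76.6, and *NKX6-1* was above background on replicate 1 alone. Their part in the interferon result was not tested.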

How the data were processed

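The authors' deposited table holds normalized intensities on a linear scale for 47323 probes on 2 arrays. GenomeStudio is named, per the submitters' processing notes, and per the labels' design text the arrays were normalized together with published ones. Other steps are not given in the sources used here. The values reach -22.6, and the sorted values of the arrays differ by at most 0.155, which background subtraction and quantile normalization leave. A shift shared by all genes is therefore not visible. The number of arrays limits the precision.

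GEO's platform annotation gave probe names (30113 with 1 gene, 8 with several, 17202 not listed), with symbols updated through Entrez identifiers for 30074. Log2 values were taken after raising values under the background level to it. Between a detected and an undetected array, folds are bounds against the background level. The computation used Python 3.11.15, pandas 2.3.3 and numpy 2.4.6 and was tested on simulated data. The simulated replicates were much closer together than these arrays, so that test checks the code and not the calls made here. Alternatives covered the background level, the probe rule, each replicate alone, an offset, centring and quantile normalization. Every one of the 46 members could be named. Of each further list the rule took the first 4 genes above background in written order, those 2-fold or more apart, and all of a list with fewer than 5 above background. Genes named outside it, such as those under background, were chosen after their values were seen. The members and lists were chosen with earlier results of these data known.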

Additional observations from a re-analysis of the deposited data

How the results depend on the processing

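Counts above background of the member groups were recomputed for each replicate alone, and ranged from 13 to 14 for class I, stayed at 3 for class II and ranged from 11 to 13 for interferon genes. Where every probe of a gene had to be above background, the counts were 7 for class I, 1 for class II, 4 for sensing and signalling genes and 1 for the other checkpoint genes, since fewer probes can pass that rule, and the last were 2 by the median probe. At the 99th percentile background level 1 class II gene was left, *CD74*, so that the class II median log2 difference was -0.38, and it turned to 0.10 with the median of the probes. The class I median turned to -0.12 after subtraction of the median gene difference, an alternative added after the data were seen. Class I genes 2-fold or more apart numbered 0 by the median probe and 1 with the offset of 50, and interferon genes 2-fold or more apart, or higher, numbered 2 with the offset. The interferon median was 0.53 with the offset and 0.65 by the median probe. Of the group counts and medians under the alternatives, 104 values were labelled as kept, 11 as moved and 2 as reversed. Kept meant the same direction and within 1.5 times a count, or within the replicate spread of the same genes for a median. Larger differences widen that spread, so the interferon medians of 0.53 and 0.65 are among the 104, though well below 1.19. Counts that were 0 under every setting, such as those of the interferon ligands, are among them too. No paired analysis was possible because the series holds 1 group. Values within about 20 units of zero cannot be ordered, and the differences between 2 arrays have no replicate check.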
